A study of Rattus norvegicus and Mus musculus with 61 samples.

Results

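Collagens, laminins and integrins are the fibres and sheets of the extracellular matrix and the receptors that hold cells to it. Members were all genes whose single annotated symbol is a collagen chain (Col, a number, a, a number), a laminin chain (Lama, Lamb or Lamc and a number) or begins with Itga, Itgb or Itgl. The rule took 60 of 8251 genes on the mouse array and 32 of 4736 on the rat array, and 30 of them were on both. It also took Itgb1bp1 in mouse, which encodes a cytoplasmic partner of beta1 integrin and is no integrin. No measured value entered the rule, and where a gene had several probe sets, the one with the highest mean log2 intensity over the species' arrays represented it.

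The series measured total RNA of parieto-occipital cortex at the site of injury on microarrays. Mice were C57BL/6 males under isoflurane and oxygen, hit by a pneumatic impactor (controlled cortical impact) at 6 m/s with 1.5 mm deformation. Each mouse sample was a pool of 4 mm disks from 3 animals, with 3 injury and 2 sham samples at each of 4, 8, 24 and 72 h and 2 naive samples. Rats were Sprague-Dawley males under sodium pentobarbital that took a fluid percussion pulse of 2.5 atm, with a 7 mm disk of 1 animal per sample. Rat injury and sham samples numbered 5 and 4 at 30 min, 3 and 4 at 4 h, and 3 and 2 at each of 8 h, 24 h, 72 h and 21 d, with 3 naive samples. No genotype, allele or drug besides the anesthetic was named, ages were not given, and the disks contained the contusion, so every value is an average over whatever cells the disk held. The labels do not say that sham samples of 1 time, whose mouse titles all carry number 1 with a letter b, c or d, came from separate pools. The p-values therefore measure the spread between arrays.

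Fibrillar collagens (types I, III, V and XI) assemble into cross-linked fibres, which in the brain lie mainly in the meninges and the walls of larger vessels. Basement membranes, the thin sheets around every brain vessel and under the pial surface, are built from laminin trimers and the network-forming collagen IV, with collagens XV and XVIII attached to them. Integrins are pairs of an alpha and a beta subunit: those with beta1, beta4, beta5 or alphav mostly bind matrix, while those with beta2 or beta7 are carried by leukocytes, microglia included.

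Of the members, 43 in mouse and 25 in rat passed the filter on dim probe sets (above 193 in mouse or 202 in rat on at least 3 arrays), and 17 were tested in both species. All 6355 mouse and 4091 rat genes that passed went into 1 limma fit per species, and a gene was called at an adjusted p below 0.05 over all of them. The lowest median correlation of a mouse array with its fellows was 0.886. The rat set held 4 arrays that stood apart by this measure: injury 30 min replicate 5 (0.755), sham 30 min replicate 3 (0.785), sham 4 h replicate 3 (0.662) and sham 4 h replicate 4 (0.537). The 5 rat arrays at 24 h, sham and injury alike, and injury 72 h replicate 2 had median signals of 389.7 to 409, against 256 and 278 in the shams at 72 h, and so did sham 4 h replicate 4 (396). Pituitary genes summed to 18660 and 20952 on the mouse shams at 4 h and to 1778 to 2700.4 on all other mouse arrays. Of 11 listed neuronal markers, 8 were on the mouse array, and none was at the floor on every sham or every injury array at 24 or 72 h.

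In mouse cortex, few members were called in the first hours after impact and 17 at 72 h. None of 43 was called at 4 h, when 0.865% of all genes were. An unadjusted p below 0.05 was found for 8 members, or 18.6%, against 9.06% of all genes. Injury arrays then lay above both shams for 7 members and below both for 6 (18.0% and 16.4% of all genes). At 8 h, 3 members rose and 1 fell, or 9.3% of the members, against 8.18% of all genes (4.91% rose and 3.27% fell). At 24 h, 5 rose and 1 fell, or 14% of the members, against 10.7% of all genes (6.20% rose and 4.50% fell). The shares at 8 and 24 h are near the background. At 72 h, 16 rose and 1 fell, or 39.5% of the members against 15.5% of all genes (9.85% rose and 5.68% fell), and 12 of these 17 changes were at least 2-fold. The median difference of the 43 members at 72 h was 0.42 on the log2 scale, against -0.01 over all genes. Every injury array then lay above both shams for 21 members and below both for 1 (20.5% and 18.0% of all genes). Such separation of 3 from 2 arrays was thus common among all genes. No such share is given for 8 and 24 h, so arrays without overlap at those times only describe a member's values. Of the 43, 8 passed the filter on dim probe sets only with the help of their injury arrays, so they could be tested through the group where they were high, and the counts over tested members only describe them. Itgam, Itgb2, Col5a2, Itga6 and Itgal exceeded the filter level on no uninjured array, Col3a1 and Col11a2 on 1 and Col6a3 on 2. All of these but Itgal and Col11a2 were among the 17 called at 72 h. With no filter, 16 of 60 members were called at 72 h (14 rose and 2 fell), against 11.1% of all genes, and the same 6 were among them (adjusted p from 4.75e-05 for Col3a1 to 0.0397 for Col6a3). By family, 10 of 23 collagens rose and 1 fell, 1 of 7 laminin chains rose and 5 of 12 integrins rose.

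In all, 18 mouse members were called at some time and 3 of them (Col4a1, Col4a2 and Col19a1) at 8, 24 and 72 h. Such shares were not computed over all genes, so both counts only describe the members. Single arrays weighed on the counts of each time. The counts with an array left out are given without the share of all genes and only describe the members too. At 72 h, 11 members were called without injury replicate 3, without sham 1c or without sham 1d. At 24 h, 2 were called without sham 1d. At 8 h, 2 were called without injury replicate 2 and 1 without either sham. At 4 h, 1 member (Col12a1) was called without sham 1c. No call changed direction under any of the 12 alternatives run for it, and 9 of the 27 calls held under all of them: Col4a1 and Col19a1 at 24 h, and Col4a2, Col6a1, Col6a2, Col3a1, Itgam, Col18a1 and Col19a1 at 72 h.

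**Figure D1:**
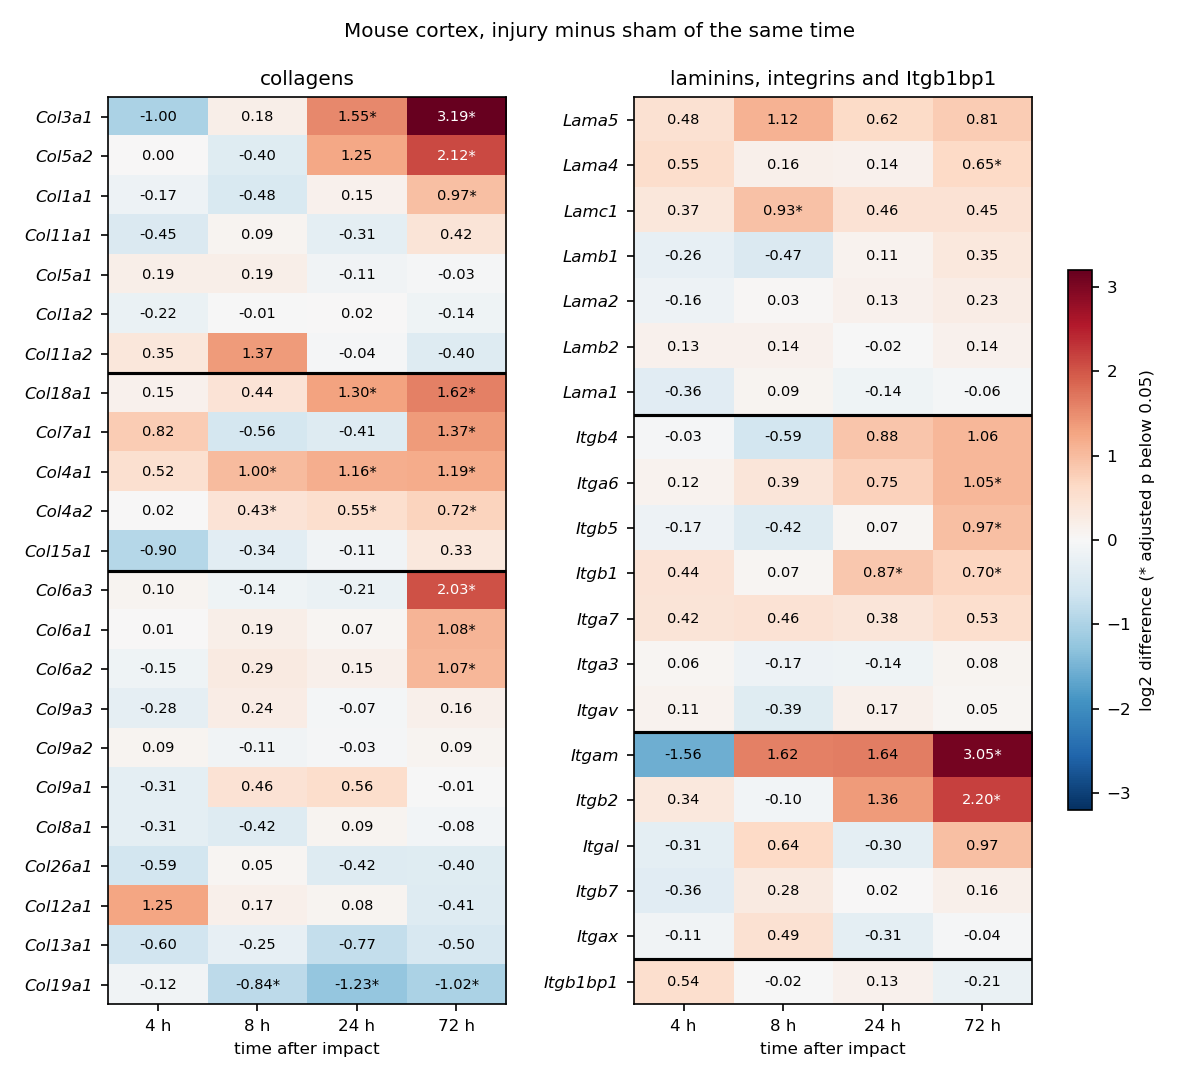
Log2 difference between injury and sham of the same time for each of the 43 mouse members that passed the filter, collagens at left and laminins, integrins and Itgb1bp1 at right; columns are hours after impact, black lines separate the gene families, and an asterisk marks an adjusted p below 0.05 (limma). Asterisks are absent at 4 h and stand beside 17 members at 72 h, of which Col19a1 alone is negative.

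Of 7 fibrillar collagens tested, 1 rose at 24 h and 3 at 72 h (6.20% and 9.85% of all genes rose). Among those called, Col3a1 and Col5a2 passed the filter only with the help of their injury arrays, so the count only describes the chains tested. Col3a1, the main chain of collagen III fibres, had intensities of 511, 553 and 975 in the injury samples at 72 h and 86.5 and 59.0 in the shams. These come from the only 1 of its 3 probe sets that passed the filter. At 24 h it had 376, 220.5 and 274 after injury and 82.2 and 114 in sham. The lowest injury array exceeded the higher sham array at both times, while at 4 h the order was the other way, with 105, 60.8 and 68.4 after injury and 196 and 118 in sham (-1.002 ± 0.40, not called). These 4 h shams are the arrays with high pituitary sums, and whether that bears on the order was not tested. The log2 differences were 1.55 ± 0.40, adjusted p = 0.0165 at 24 h and 3.19 ± 0.40, adjusted p = 1.71e-05 at 72 h, the latter a 9.11-fold rise (± is the standard error from limma throughout, and adjusted p is the Benjamini-Hochberg value over all genes). The 72 h call held in every alternative, with differences of 2.60 to 3.46. The 24 h call did not. With 1 array of that time left out (injury replicates by number, shams by number and letter), its adjusted p was 0.0690 without injury 1, 0.151 without sham 1c and 0.0573 without sham 1d. Col5a2, a chain of collagen V, which is built into fibres of collagens I and III, had 509, 381 and 596 after injury and 135 and 93.5 in sham at 72 h. These arrays did not overlap, and the difference was 2.12 ± 0.45, adjusted p = 0.00312, or 0.0556 without sham 1d. At 24 h Col5a2 was at 271, 203 and 489.8 against 128 and 125, also without overlap, and was not called (adjusted p = 0.0887), though it was without injury replicate 2 (0.0456).

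The chains of collagen I, the most abundant fibre-forming collagen of connective tissue, depended on the probe set. Col1a1 rose at 72 h on its representing probe set (1379, 1791 and 2186 against 1099 and 728, 0.97 ± 0.29, adjusted p = 0.0281). That call was lost in 6 of 12 alternatives, among them the adjusted p of 0.0594 without injury 2, 0.116 without injury 3 and 0.306 without sham 1d. The other probe set of Col1a1 rose further, from 265 and 329.7 in sham to 1074, 2392 and 2393 after injury (2.63 ± 0.44, adjusted p = 0.000447 with every probe set tested alone). For Col1a2 the probe sets disagreed outright. The brighter one, which represented the gene, stayed between 2603 and 3816 on all 22 mouse arrays and gave -0.14 ± 0.15 at 72 h. The dimmer one had 1138, 780.1 and 1302 after injury and 134 and 59.5 in sham at 72 h, with no overlap (3.55 ± 0.61, adjusted p = 0.000506). Leaving out any of these 5 arrays kept that call, with differences of 2.96 to 4.14 and an adjusted p of 0.000826 to 0.0212. With the mean of both probe sets, Col1a2 rose at 72 h (1.70 ± 0.33, adjusted p = 0.00147). At 24 h neither probe set of Col1a2 was called (0.02 ± 0.15 and 0.32 ± 0.61). Tested alone, at least 1 probe set of 18 mouse members was called at 72 h and of 8 at 24 h. Of all 8477 probe sets tested, 13.9% were called at 72 h and 9.12% at 24 h, against 21 and 8 of 55 member probe sets. A member counted if any 1 of its probe sets passed, so the member counts are on another scale than these shares. The other fibrillar members, Col5a1, Col11a1 and Col11a2, had -0.03 ± 0.16, 0.42 ± 0.51 and -0.40 ± 0.79 at 72 h and were not called at any time.

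**Figure D2:**
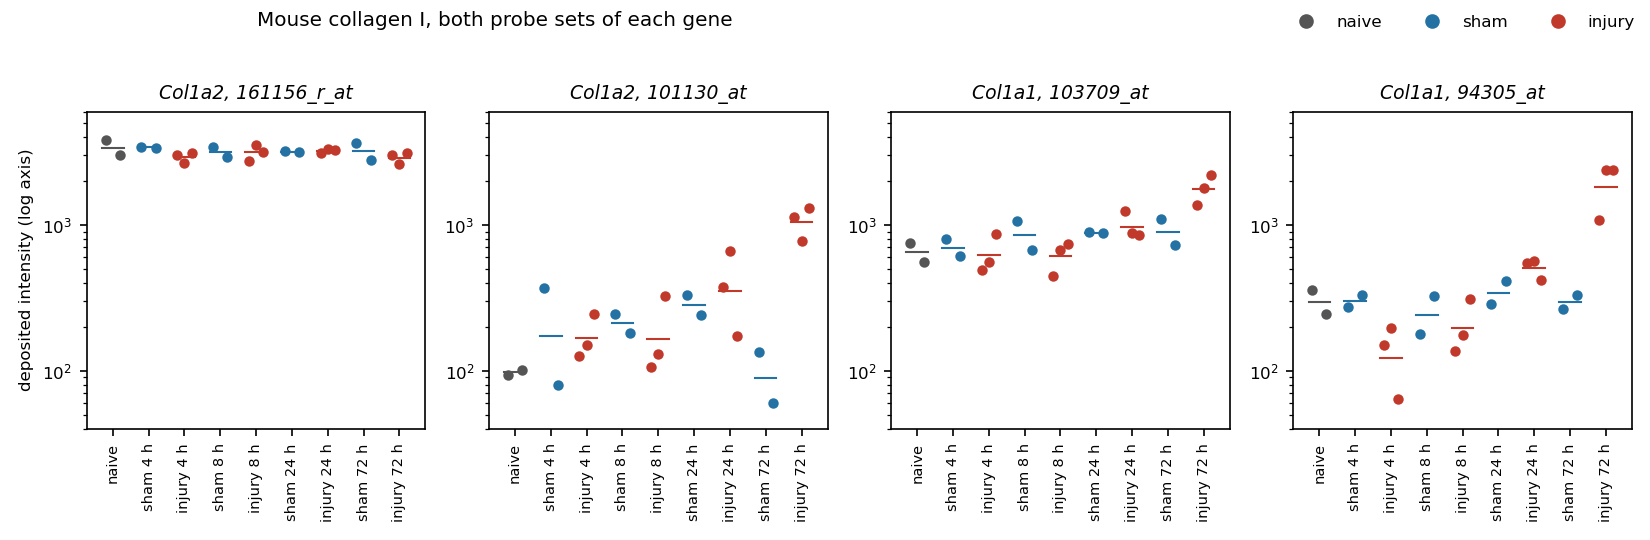
Deposited intensity (log axis, same range in all panels) on each of the 22 mouse arrays for both probe sets of Col1a2 (left) and Col1a1 (right), by group; dots are arrays and bars the mean of the log2 values of a group. The first Col1a2 panel is level across groups, while in the second the injury samples at 72 h lie at 780 to 1302, above every other array.

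Markers of fibroblasts and meninges moved with the fibrillar collagens in part. At 72 h, 4 of 8 tested genes of that list rose (9.85% of all genes did), among them Lum (1.73 ± 0.29), a proteoglycan that coats collagen fibres, and Mgp (1.30 ± 0.22). Ptgds fell (-1.48 ± 0.23). The summed intensity of the list's 11 genes on the array was 22246 to 23715 after injury and 24436 to 29469 in sham, and no gene of it was at the floor on every array of either group. Their part in the rise of the collagens was not tested. More of a cell type and more RNA per cell cannot be told apart in these disks.

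Of 5 basement membrane collagens tested, 2 rose at 8 h, 3 at 24 h and 4 at 72 h (4.91%, 6.20% and 9.85% of all genes rose). Col4a1 encodes the main alpha chain of vascular collagen IV and Col4a2 its partner, since the trimer holds both. The genes lie head to head with no protein-coding gene between them, and share the short interval between their starts. It is shown from the rat genome (RefSeq, GRCr8, chr16:84885521-84885596, + strand) because the called changes of both chains in mouse ran the same way. Neither gene was among the rat members.

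Col4a1 to Col4a2 interval: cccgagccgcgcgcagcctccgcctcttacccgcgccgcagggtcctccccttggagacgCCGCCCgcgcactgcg

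Capitals mark a GC box (GGGCGG, here on the other strand), the only match among 4 motifs searched on both strands, the others being the CCAAT box, the TATA box (TATAAA) and the PU.1 core (GAGGAA). Of 33469 annotated promoter windows of the same 76 bases, 18.1% hold a GC box, 13% CCAAT, 4.61% TATAAA and 7.47% GAGGAA. A match describes these letters and is no shown binding site.

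Col4a1 had 2140.4, 1838 and 1967 after injury and 1214 and 801 in sham at 8 h. At 24 h it had 3198, 2042 and 2275 against 1066 and 1130.4, and at 72 h 3026, 2945 and 3023 against 900.2 and 1924. Injury arrays lay above sham arrays at each of these times, with sham 1d at 72 h (1924) the highest of all shams. The differences were 1.004 ± 0.24, adjusted p = 0.0116 at 8 h, 1.16 ± 0.24, adjusted p = 0.00304 at 24 h and 1.19 ± 0.24, adjusted p = 0.00186 at 72 h. The 24 h call held in every alternative, while the adjusted p was 0.172 without sham 1c at 8 h and 0.0505 without sham 1c at 72 h. Col4a2 rose less, by 0.43 ± 0.13, 0.55 ± 0.13 and 0.72 ± 0.13 at the same times. Its 72 h values of 2591, 2636 and 2868 lay above both shams (1711 and 1563), and that call held in every alternative (adjusted p = 0.000554). At 24 h the Col4a2 call (adjusted p = 0.00758) was lost without sham 1d (0.111). At 8 h (adjusted p = 0.0402) it was lost without any 1 of the 5 arrays, at 0.0811 without injury 1, 0.0580 without injury 2, 0.113 without injury 3, 0.176 without sham 1b and 0.168 without sham 1c.

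Col18a1, whose collagen carries heparan sulfate chains and releases the fragment endostatin, had 872, 889 and 854 at 24 h and 1289, 1162 and 1497 at 72 h after injury. The shams had 355 and 354 and 369 and 491. No arrays overlapped at either time, and the injury arrays at 24 h were within a narrow band. The differences were 1.30 ± 0.33, adjusted p = 0.0151 and 1.62 ± 0.33, adjusted p = 0.00210. The later call held in every alternative, and the earlier had an adjusted p of 0.0873 without sham 1c and 0.107 without sham 1d. Naive replicate 2 was low for Col18a1 (458 and 141 in the naive samples). Only 1 of the 5 probe sets of Col18a1 passed the filter, and all these values are from it.

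Col7a1, which forms the anchoring fibrils of epithelia, had 689, 715 and 838 after injury and 192 and 434 in sham at 72 h. All injury arrays were higher, but the shams were far apart, and both shams at 24 h (481 and 501) were above sham 1d at 72 h. The difference was 1.37 ± 0.40, adjusted p = 0.0255, with an adjusted p of 0.0516 without injury 1, 0.0805 without injury 3 and 0.264 without sham 1c. Col15a1, the vascular collagen XV, was not called at any time (0.33 ± 0.34 at 72 h). Endothelial markers moved over the same times: 3 of 9 tested genes rose at 24 h and 5 at 72 h (6.20% and 9.85% of all genes rose), with Vwf at 1.98 ± 0.31 and 2.02 ± 0.31. Their summed intensity was 6100 to 7027 after injury and 4637 to 4856 in sham at 24 h, and 9478 to 10956 against 4570 to 6034 at 72 h, with none at the floor on every array of a group. Of 6 tested pericyte and smooth muscle genes, 1 rose at each time (Tagln), and their sum at 72 h was 3936 to 5751 against 2020 to 2506. The part of these cells in the collagen changes was not tested.

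Collagen VI, a beaded filament of most connective tissues, rose at 72 h with all 3 of its chains among the members (9.85% of all genes rose). Of these, Col6a3 passed the filter only with the help of its injury arrays, so the count only describes the chains tested. Col6a1 had 4306, 3005 and 4472 after injury and 1816 and 1831 in sham. Col6a2, its neighbour in the genome with no protein-coding gene between them, had 1508, 1271 and 1876 against 837 and 637. Col6a3 had 681, 526 and 867 against 162 and 170.3. None of these groups overlapped, and injury replicate 2 was the lowest injury array for each chain. The differences were 1.08 ± 0.18, adjusted p = 0.000381 for Col6a1, 1.07 ± 0.18, adjusted p = 0.000409 for Col6a2 and 2.03 ± 0.56, adjusted p = 0.0192 for Col6a3. The calls of Col6a1 and Col6a2 held in every alternative, and the second probe set of Col6a1 rose too (1.22 ± 0.24, adjusted p = 0.00158). The Col6a3 call had an adjusted p of 0.0709 without injury 3, 0.0591 without sham 1c and 0.100 without sham 1d. At 24 h none of the chains was called (0.07 ± 0.18, 0.15 ± 0.18 and -0.21 ± 0.56).

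Whether the injury effect differed between 72 h and 24 h was tested directly. No member passed, and 0.283% of all genes did. An unadjusted p below 0.05 was found for 6 members, or 14.0%, against 10.7% of all genes. The smallest adjusted p was 0.124 for Col6a1, with a difference of effects of 1.01 ± 0.26. Without injury 24 h replicate 2, which was high for Col6a1 (1785, 2720.1 and 1703), 3 members passed: Col6a1 (1.22, adjusted p = 0.0125), Col6a2 (1.08, adjusted p = 0.0469) and Itgb5 (1.23, adjusted p = 0.0371). Without injury 72 h replicate 2 Col6a1 alone passed (adjusted p = 0.0375), and without sham 1c at 72 h Col6a2 alone (adjusted p = 0.0252).

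Col19a1 was the 1 mouse member that fell. It encodes a collagen with interrupted triple helices that in brain is made by some interneurons. It had 569, 573 and 636 after injury and 1129 and 1000.4 in sham at 8 h. At 24 h it had 369.8, 527 and 464 against 989 and 1120.0, and at 72 h 328, 402 and 302 against 857 and 559. Every injury array lay below every sham array at these times, and sham 1d at 72 h was the lowest of all shams. At 72 h, 18.0% of all genes had every injury array below both shams, and no such share is given for 8 and 24 h. The differences were -0.84 ± 0.21, adjusted p = 0.0157 at 8 h, -1.23 ± 0.21, adjusted p = 0.000642 at 24 h and -1.02 ± 0.21, adjusted p = 0.00223 at 72 h. The later calls held in every alternative, and the 8 h call had an adjusted p of 0.177 without sham 1b. Of 8 tested neuronal markers, none was called at 24 or 72 h. Their summed intensity was 41187 to 47558 after injury and 39476 to 46966 in sham at 24 h, and 38212 to 43440 against 34429 to 49848 at 72 h, and none was at the floor on every array of a group. Their part in the fall of Col19a1 was not tested. The remaining 7 members among the non-fibrillar, non-basement-membrane collagens (Col8a1, Col9a1, Col9a2, Col9a3, Col12a1, Col13a1 and Col26a1) were not called at any time, and ranged from -0.50 (Col13a1) to 0.16 (Col9a3) at 72 h.

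Col12a1, a collagen attached to fibre surfaces, had the smallest adjusted p at 4 h (1.25 ± 0.39, adjusted p = 0.211). Its shams there, the arrays with high pituitary sums, were 55.6 and 184, and without sham 1c (184) the difference was 2.12. The injury arrays of 229.8, 238 and 257 lay above both shams and both naive arrays (222 and 208).

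Among laminin chains the changes were few. Lamc1, the gamma chain shared by most laminin trimers, had 859, 956 and 749 after injury and 427 and 465 in sham at 8 h, without overlap (0.93 ± 0.24, adjusted p = 0.0203). Its adjusted p was 0.0749 without injury 2, 0.179 without sham 1b and 0.0703 without sham 1c, and it was not called at 24 or 72 h (0.46 ± 0.24 and 0.45 ± 0.24). Lama4, the alpha chain of endothelial laminin, rose at 72 h (0.65 ± 0.21, adjusted p = 0.0387). That call was lost in 8 of 12 alternatives, as many as that of Col4a2 at 8 h, with an adjusted p of 0.0612 without injury 1, 0.0599 without injury 2, 0.132 without injury 3, 0.0833 without sham 1c and 0.174 without sham 1d. Lama5, the alpha chain of mature vascular laminin, had a higher mean in injury than in sham at every time, by 0.48 ± 0.38 to 1.12 ± 0.38, and was not called. It was called at 72 h without sham 1c (adjusted p = 0.0242). Its naive arrays (72.4 and 107) lay below every sham array, the lowest of which was 125. Sham against naive gave 1.22 ± 0.33 for Lama5 with an adjusted p of 0.196. Lama1, Lama2, Lamb1 and Lamb2 were between -0.06 and 0.35 at 72 h and were not called at any time.

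Sham surgery against naive called no member in mouse (0.110% of all genes). The unadjusted p was below 0.05 for 3 members, or 6.98%, against 10.2% of all genes. Without naive replicate 1, Col18a1 passed (1.48, adjusted p = 0.0188), with its low naive array the remaining one.

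Of 7 matrix receptor integrins tested, 1 rose at 24 h and 3 at 72 h (6.20% and 9.85% of all genes rose). Itga6, called at 72 h, passed the filter through injury arrays alone, so the count only describes the chains tested. Itgb1 encodes beta1, the subunit shared by the collagen, laminin and fibronectin receptors, and was called at 72 h in both species. Its upstream sequence is therefore shown, the 250 bases before the annotated start in the rat (RefSeq, GRCr8, chr19:73602027-73602276, + strand).

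Itgb1: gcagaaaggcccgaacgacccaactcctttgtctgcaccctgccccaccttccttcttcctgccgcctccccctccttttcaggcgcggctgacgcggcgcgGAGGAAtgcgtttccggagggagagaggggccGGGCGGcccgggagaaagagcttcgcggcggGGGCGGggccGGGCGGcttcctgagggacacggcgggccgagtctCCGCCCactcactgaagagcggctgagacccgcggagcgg

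Capitals mark 4 GC boxes and 1 GAGGAA, the core read by ETS factors such as PU.1. Of all promoter windows of 250 bases, 30.5% hold at least 1 GC box and 23.3% at least 1 GAGGAA. Windows with as many matches as here were not counted. CCAAT (34%) and TATAAA (12.9%) had no match in these letters.

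In mouse, Itgb1 had 7799.9, 5486 and 6645 after injury and 3851 and 3371 in sham at 24 h. At 72 h it had 6506, 4965 and 6553 against 3218 and 4199.5. The injury arrays were above both shams at each time, and the naive arrays (3097 and 2967) lay below the shams of both times. The differences were 0.87 ± 0.19, adjusted p = 0.00418 and 0.70 ± 0.19, adjusted p = 0.0150, and the second probe set rose at 72 h too (1.01 ± 0.18, adjusted p = 0.000846). The adjusted p was 0.0810 without sham 1d at 24 h and 0.0589 without injury 1, 0.0620 without injury 3 and 0.127 without sham 1c at 72 h. Itga6, the alpha subunit of laminin receptors, rose at 72 h from 119 and 135 in sham to 281, 196 and 333 after injury (1.05 ± 0.32, adjusted p = 0.0297). The groups did not overlap, but values were dim, and the call was lost in 7 of 12 alternatives, with an adjusted p of 0.0834 without injury 1, 0.121 without injury 3, 0.101 without sham 1c and 0.104 without sham 1d. Itgb5, which pairs with alphav to bind vitronectin, rose at 72 h (0.97 ± 0.25, adjusted p = 0.0115, and 0.0859 without sham 1c), while its second probe set did not change beyond its error (0.05 ± 0.21). Itgb4, the beta subunit of hemidesmosomes, had 1.06 ± 0.69 and Itga7, a laminin receptor of muscle, 0.53 ± 0.25 at 72 h, and neither was called. Itga3 and Itgav stayed between -0.39 and 0.17 at all 4 times, and Itgb1bp1 was not called on its representing probe set (0.54 ± 0.18 at 4 h, -0.21 ± 0.18 at 72 h). With every probe set tested alone, 1 further probe set each of Itga7 (0.75 ± 0.23, adjusted p = 0.0466) and Itgb1bp1 (0.73 ± 0.21, adjusted p = 0.0303) passed at 24 h. Both lost that call without injury 1, injury 3, sham 1c or sham 1d, at an adjusted p of 0.0819 to 0.300 for Itga7 and 0.0848 to 0.236 for Itgb1bp1.

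Of 5 leukocyte integrins tested, Itgam and Itgb2 rose at 72 h (9.85% of all genes rose), and none was called earlier. Both of them, and Itgal, passed the filter through injury arrays alone, so this count does no more than describe the chains tested. Itgam encodes CD11b and Itgb2 its partner CD18, which together form complement receptor 3 of microglia, macrophages and neutrophils. The 250 bases upstream of Itgam in the rat (RefSeq, GRCr8, chr1:192089342-192089591, + strand) are shown because myeloid genes are classical targets of PU.1.

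Itgam: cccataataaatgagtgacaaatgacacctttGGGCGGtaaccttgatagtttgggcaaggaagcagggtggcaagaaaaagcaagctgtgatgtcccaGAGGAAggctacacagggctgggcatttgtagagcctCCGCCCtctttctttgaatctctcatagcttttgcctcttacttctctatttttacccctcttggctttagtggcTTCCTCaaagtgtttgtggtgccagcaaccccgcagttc

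Capitals mark 2 GC boxes and 2 GAGGAA, in 1 or the other orientation. The shares of all windows with at least 1 match are those given above for Itgb1. Neither CCAAT nor TATAAA matched.

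Itgam had 405, 385 and 450.1 after injury and 76.6 and 32.2 in sham at 72 h. At 8 h it had 159, 111 and 224 against 77.9 and 34.0, at 24 h 130.2, 105 and 86.8 against 40.6 and 28.4, and at 4 h 118, 31.3 and 30.6 against 143 and 142. Injury arrays lay above sham arrays from 8 h on and below them at 4 h. Both 4 h shams, the highest of all shams for Itgam, are the arrays with high pituitary sums (18660 and 20952). Whether that bears on the order at 4 h was not tested. The call at 72 h (3.05 ± 0.58, adjusted p = 0.00113, 8.30-fold) held in every alternative, with differences of 2.39 to 3.68, and the earlier times were not called (1.62 ± 0.58 at 8 h, 1.64 ± 0.58 at 24 h). Itgb2 had 371, 331 and 613 after injury and 118 and 71.8 in sham at 72 h, again without overlap (2.20 ± 0.46, adjusted p = 0.00253, and 0.0561 without sham 1d). At 24 h Itgb2 was at 190.0, 202 and 283 against 69.2 and 107 and was not called (adjusted p = 0.0629). The other partners of beta2 were not called: Itgal (CD11a) had 0.97 ± 0.63 and Itgax (CD11c), the neighbour of Itgam, -0.04 ± 0.33 at 72 h. Itgb7, the beta subunit of gut-homing lymphocytes, had 0.16 ± 0.23. Microglia and macrophage markers moved with Itgam and Itgb2: 5 of 9 tested genes rose at 24 h and 8 of 9 at 72 h, with Lyz2 at 5.37 ± 0.33 and Tyrobp at 2.71 ± 0.21 at 72 h. Of all genes, 6.20% rose at 24 h and 9.85% at 72 h. Marker genes were not checked for passing the filter through injury arrays alone, so these counts only describe the genes tested. Their summed intensity over the 12 genes on the array was 15611 to 17195 after injury and 8477 to 8650.5 in sham at 24 h, and 27944 to 36332 against 8539 to 10287 at 72 h. Fcer1g was at the floor on both shams at 24 h, and Fcer1g and Ptprc on both naive arrays. The part of these cells in the integrin changes was not tested.

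**Figure D3:**
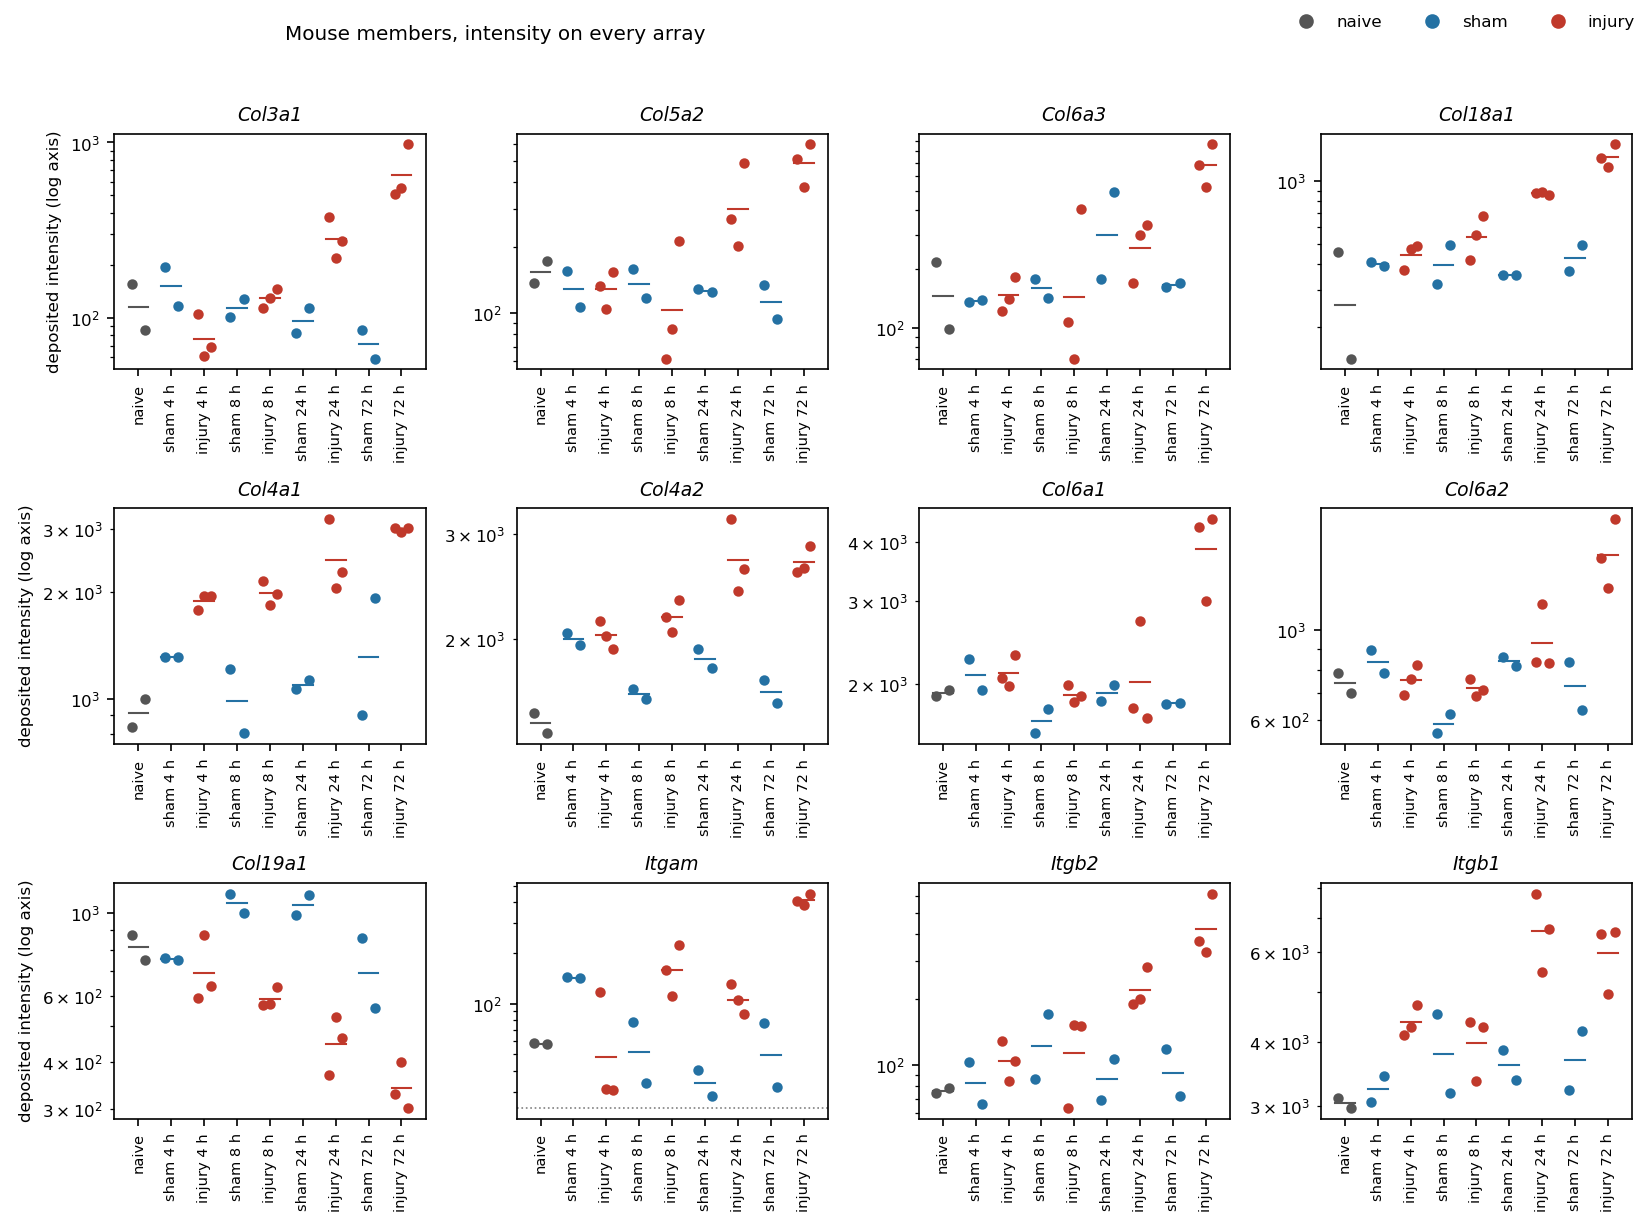
Deposited intensity (log axis, range differs by panel) on each of the 22 mouse arrays for 12 members, by group; dots are arrays, bars the mean of the log2 values of a group, and the dotted line in the Itgam panel the floor of 24.1. At 72 h every injury array lies above both shams in each panel except Col19a1, where it lies below.

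The 17 mouse members that did not pass the filter were too dim to test: Col2a1, Col4a3, Col4a4, Col4a5, Col10a1, Col14a1, Col17a1, Col22a1, Lama3, Lamb3, Itga2, Itga4, Itga5, Itga8, Itgae, Itgb2l and Itgb3. Their highest value on any array was 290.1 (Itgb2l), and Col22a1 was below the floor on all 22. Without the filter, Itga5, the fibronectin receptor subunit, was called at 24 h (136, 63.5 and 62.2 after injury against 12.9 and 11.4, both shams below the floor, so a log2 difference of at least 1.76, adjusted p = 0.0292). Col17a1, an epithelial collagen, was called at 24 h too (121, 163 and 142 against 50.1 and 62.5, 1.33, adjusted p = 0.00234), and at 72 h it was back at 50.0, 63.4 and 53.0. Itga4, a subunit of lymphocyte and monocyte integrins, fell at 72 h in that fit (-0.82, adjusted p = 0.0474).

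Other matrix genes were counted from lists of collagen assembly enzymes, matrix glycoproteins, proteases, integrin adaptors and TGF-beta genes. Genes of these lists and of the cell type lists were not checked for passing the filter through injury arrays alone. Their counts therefore only describe the genes tested. Of all genes, 6.20% rose at 24 h and 9.85% at 72 h in mouse, and 2.10% at 72 h in rat. At 72 h in mouse, 3 of 10 assembly enzymes rose: Serpinh1, the collagen chaperone (2.34 ± 0.23, adjusted p = 7.27e-07), Sparc (1.58 ± 0.19) and Bmp1, a procollagen protease (0.66 ± 0.20). Serpinh1 had already risen at 24 h (1.34 ± 0.23). Among 20 matrix glycoproteins and proteoglycans, 9 rose and 1 fell at 72 h, against 6 and 2 at 24 h. Examples at 72 h are Bgn, biglycan (1.99 ± 0.19), Tgfbi, which binds collagen and integrins (3.40 ± 0.49), and Fn1, fibronectin (1.14 ± 0.17). Of 11 proteases and inhibitors, 5 rose at each of 24 and 72 h, led by Timp1, an inhibitor of matrix metalloproteinases (2.13 ± 0.25 at 72 h), and Plaur, the urokinase receptor (2.73 ± 0.36). Among 16 integrin adaptors and kinases, 5 rose and 1 fell at 72 h. Vasp, an actin regulator, rose by 1.18 ± 0.20 and Vcl, vinculin, by 0.90 ± 0.18, and Ptk2b, a relative of focal adhesion kinase, changed by -0.90 ± 0.19. Of 8 TGF-beta genes, Tgfb1 alone rose at 72 h (4.09 ± 0.68, adjusted p = 0.000338). The medians of these lists at 72 h were 0.43, 0.85, 0.86, 0.43 and 0.21 in the order given, against -0.01 over all genes. In rat at 72 h, 3 of 14 matrix glycoproteins and proteoglycans rose, among them Spp1, osteopontin (6.94 ± 0.66), and 4 of 13 proteases and inhibitors, among them Timp1 (1.77 ± 0.38). None of 11 assembly enzymes, 8 integrin adaptors or 11 TGF-beta genes was called there.

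Over the 9 mouse group means, the genes whose log2 levels followed Col3a1 most closely were Ly86 (Pearson r = 0.985), Tmem176b (0.976), Alg5 (0.970), C1qc (0.965) and Rrm2 (0.962). These 9 points share 1 time course and the value at 72 h, so the numbers only describe likeness.

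In rat cortex few members were called, and the calls rested on few arrays, 2 to 4 shams and 3 to 5 injury samples at a time. At 30 min none of 25 was called (0.0244% of all genes). There 1 member, or 4%, had an unadjusted p below 0.05, against 3.23% of all genes. At 4 h, 3 collagens fell (12% of the members against 4.99% of all genes in either direction and 2.05% that fell). At 8 h and 24 h none was called (0.709% and 0.269% of all genes). At each, 1 member, or 4%, was below an unadjusted 0.05, against 8.24% and 4.86% of all genes. At 72 h, 1 rose, or 4% of the members against 2.76% of all genes (2.10% rose), which is near the background. At 21 d none was called (0.00% of all genes), nor did any pass an unadjusted 0.05 (1.22% of all genes did). Sham against naive called none (0.0244%), nor did the difference of effects between 21 d and 72 h (0.171%). Below an unadjusted 0.05 were no member and 1 member (4%), against 5.33% and 7.19% of all genes.

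At 72 h, rat Itgb1 had 3183, 3549 and 5042 after injury and 1744 and 1103 in sham. The injury values were the highest of all rat arrays, except that injury 8 h replicate 2 (3206) exceeded the lowest of them. The difference was 1.47 ± 0.37, adjusted p = 0.0256, and the adjusted p was 0.0623 without injury 2, 0.161 without injury 3, 0.0728 without sham 1 and 0.360 without sham 2. At 21 d the values were 1541, 1724 and 1600.3 against 1617 and 1529.5, so injury and sham overlapped. Microglia and macrophage genes summed to 14964 to 22205 after injury and 9227 to 9950 in sham at 72 h, and 2 of 6 tested rose (2.10% of all genes rose). Of 8 tested neuronal genes 2 fell (Nefm and Map2), while 2.76% of all genes were called in either direction. The neuronal sums were 11568 to 25044 against 37637 to 39526, with Slc17a7 at the floor on every array of both groups. The part of microglia, macrophages and neurons in the Itgb1 rise was not tested.

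Of 5 rat fibrillar collagens tested, 4 were higher and 1 lower at 72 h, and none passed the test. Col1a1 had 3799, 4289 and 5682 after injury and 1137 and 1265 in sham (1.92 ± 0.62, adjusted p = 0.0973). Col1a2 had 1204, 1584 and 1735 against 587 and 885 (1.05 ± 0.55), and Col5a2 423, 813 and 706 against 288 and 369.8 (0.94 ± 0.40). None of these groups overlapped, which holds for 19.0% of all genes in that direction. Col3a1 had 568, 1150.3 and 1145 against 544 and 570.4, with injury replicate 1 inside the sham range (0.70 ± 0.36). Col5a1 was lower, with 519, 274 and 564 after injury and 731 and 704 in sham (-0.73 ± 0.48, adjusted p = 0.521), every injury array below both shams, as for 15.1% of all genes. All 4 probe sets of Col1a1 were higher at 72 h, by 0.93 to 1.92, and none passed. With all uninjured rat arrays as 1 control group, Col1a1 (2.03, adjusted p = 0.00115) and Col5a2 (1.19, adjusted p = 0.00446) rose at 72 h. At 21 d Col1a1 was at 1207, 3536 and 2299 against 1170.4 and 2395, with overlap.

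Col8a1, a short-chain collagen of vessel walls and Descemet's membrane, had 742, 662 and 425 after injury and 183 and 103 in sham at 72 h (2.11 ± 0.81, adjusted p = 0.177). It passed without the 4 arrays that stood apart (adjusted p = 0.0329). At 24 h both injury arrays and shams were high, 783, 1131 and 827 against 459 and 614, on the arrays with high median signal. The injury arrays were above the shams there (0.77 ± 0.81, not called).

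At 4 h, Col1a2 had 373, 338 and 221 after injury and 304, 885, 1209 and 1908 in sham. Col3a1 had 331, 306 and 310.0 against 510.3, 431, 812 and 915. Col26a1, a collagen-like matrix protein first found in testis and ovary, had 365, 267 and 495 against 549, 613, 1094 and 2743. The last values of each sham group, replicates 3 and 4, are arrays that stood apart, and they were the highest shams for all these genes. All injury titles at 4 h carry the letter b and all sham titles a, so letter and injury cannot be told apart there. Injury and sham overlapped for Col1a2 and did not for Col3a1 and Col26a1 (6.33% of all genes had every injury array below every sham array). The differences were -1.55 ± 0.46, adjusted p = 0.0467 for Col1a2, -1.01 ± 0.30, adjusted p = 0.0467 for Col3a1 and -1.46 ± 0.41, adjusted p = 0.0421 for Col26a1. Without the 4 arrays that stood apart no member was called at 4 h, and these had adjusted p = 0.430, 0.597 and 0.474, with differences still below 0. Leaving out 1 array ended all 3 calls for each of injury 1, injury 2, injury 3, sham 3 and sham 4, the Col1a2 values being 0.0967, 0.143, 0.139, 0.132 and 0.245 in that order, the Col3a1 values 0.111, 0.161, 0.111, 0.138 and 0.228 and the Col26a1 values 0.108, 0.181, 0.0526, 0.108 and 0.240. With sham 1 or sham 2 left out, 6 and 5 members were called, and the share of all genes called went to 26.3% and 27.7%. With quantile normalization 1 member was called, and the median of all genes moved by 0.15. Of the 4 probe sets of Col1a1, each tested alone, 2 fell at 4 h (-1.14 ± 0.33, adjusted p = 0.0420, and -1.40 ± 0.34, adjusted p = 0.0227), at up to 0.241 and 0.127 with 1 array left out, and the representing one was not called (-0.98 ± 0.52). The median of the 25 members at 4 h was -0.53, against -0.12 over all genes. Endothelial genes (4 on the array) summed to 780 to 5367 over the shams and 695 to 929 after injury, and lymphocyte genes to 1032 to 5733 against 1132 to 1334. The part of these cells in the difference was not tested. Rat members that did not pass the filter were Col2a1, Col4a5, Col9a1, Col11a1, Lama2, Lama5 and Itgam. Rat Itgam was at 152 or lower on every array, so the mouse rise has no counterpart that could be tested.

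**Figure D4:**
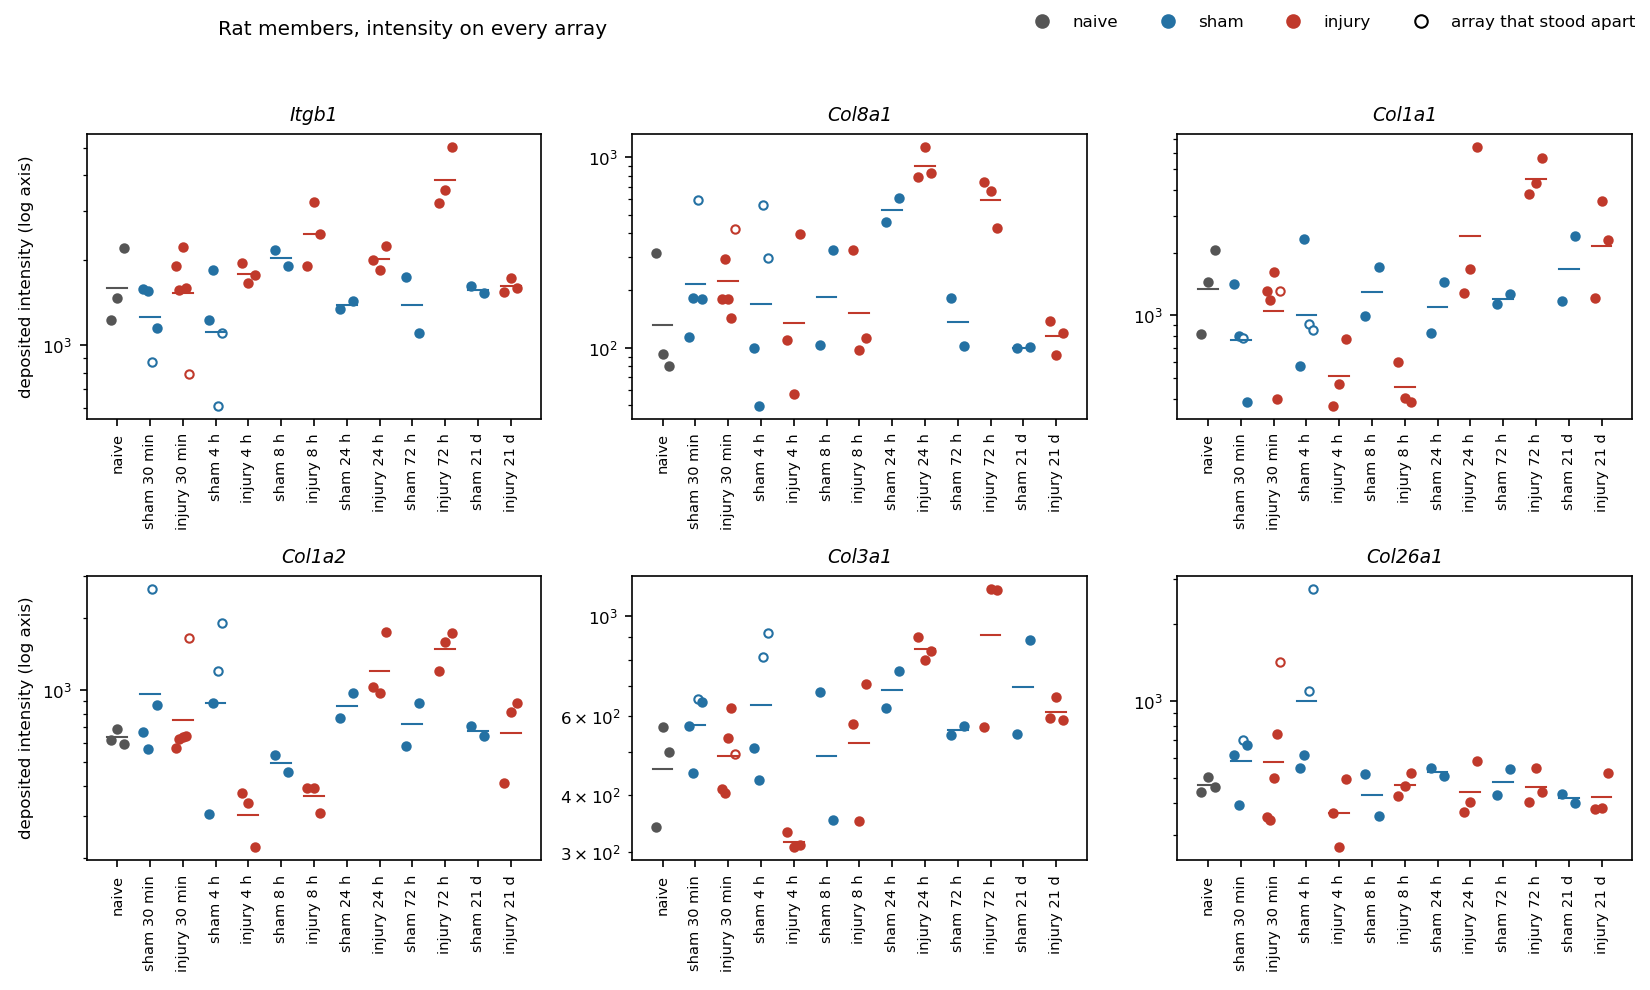
Deposited intensity (log axis, range differs by panel) on each of the 39 rat arrays for 6 members, by group; dots are arrays, bars the mean of the log2 values of a group, and open dots the 4 arrays that stood apart. At 72 h the injury arrays of Itgb1 lie at 3183 to 5042 above the shams, and at 4 h the open sham dots of Col1a2, Col3a1 and Col26a1 are the highest of their group.

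Of the 17 members tested in both species, 8 were higher after injury in both at 72 h and 1, Itgb1, was called in both. These shares were not computed over all genes tested in both species, so the counts only describe the members. Col3a1 had 3.19 ± 0.40 in mouse and 0.70 ± 0.36 in rat, and Col5a2 2.12 ± 0.45 and 0.94 ± 0.40. Col8a1 had -0.08 ± 0.33 in mouse and 2.11 ± 0.81 in rat, and Col1a1 0.97 ± 0.29 and 1.92 ± 0.62. The species differ in injury, anesthetic, disk, pooling and array, and the difference between them was not tested.

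**Figure D5:**
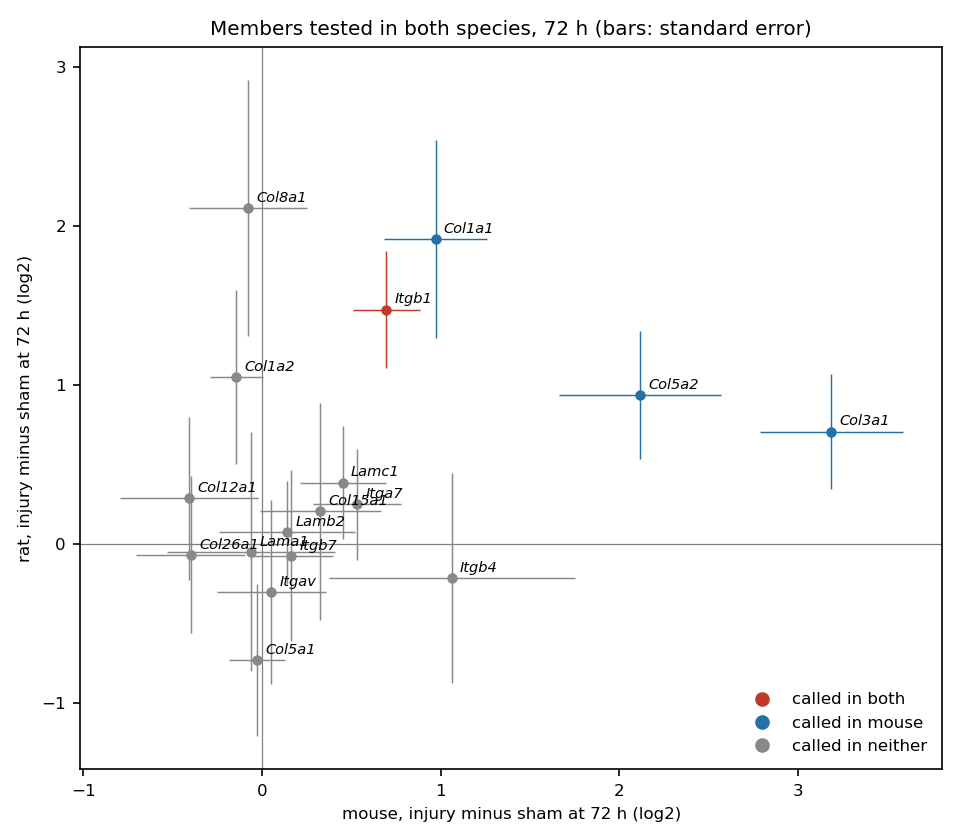
Log2 difference between injury and sham at 72 h in mouse (x axis) and rat (y axis) for the 17 members tested in both; bars are standard errors from limma and colours mark where a member was called. Itgb1 alone is called in both, Col3a1 lies far right, and Col8a1 is highest in rat with a mouse value of -0.08.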

How the data were processed

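For every array, the deposited files gave each probe set a linear intensity, already scaled by the authors so that each array's trimmed mean lay near 800.3 to 801.2. The software that made them is not given in the sources used here. Intensities were raised to a floor (the 10th percentile over all arrays of a species, 24.1 in mouse and 32.1 in rat) and taken to log2. Genes were kept where their probe set exceeded the pooled 40th percentile on at least 3 arrays. Each species was fitted over its groups in limma 3.58.1 (R 4.3.3), after the scripts were tested on simulated data, with Benjamini-Hochberg adjustment over all genes and a threshold of 0.05. Figures were drawn in matplotlib 3.10.9 (Python 3.11.15).

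Values on every array were given for members called with at least a 2-fold change (up to 12 in mouse and 8 in rat) and for the strongest called member of each family. The array values of Col4a2, mouse Itgb1, Lama5, Col12a1, Itga6, uncalled rat members and second probe sets were chosen after their values were seen. Members and lists were chosen with earlier results of these data known. Alternatives were leaving the filter out, raising the floor to the 25th percentile, quantile normalization, averaging the probe sets of a gene, all uninjured arrays as 1 control group, blocks, averaged shams and leaving out arrays. Promoter sequences came from a RefSeq table of GRCr8, which matched 24 of 32 rat members.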

Additional observations from a re-analysis of the deposited data

Results flagged for a closer look

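Each of the 25 tested rat members was examined in the groups of 4 or 5 arrays, which were injury 30 min, sham 30 min and sham 4 h. Of these 75 sets of values, 8 held 1 array far from the others. The cut-off used flags about 1 in 20 sets of independent normal values. The members share the same arrays and linear intensities were used, so that rate is no expectation for these sets. In the 30 min groups, Col1a2 was at 1645 on injury replicate 5, against 574 to 644 on the others, and at 2653 on sham replicate 3, against 567 to 868. On the same sham array Col8a1 was at 596 (others 113 to 182), Col12a1 at 521 (others 138 to 186) and Itga7 at 1122 (others 449 to 562). Lamb2 was low on sham 30 min replicate 2, at 493 against 690.3 to 727. On sham 4 h replicate 4, Itgae was at 336 (others 137 to 162) and Col5a1 at 2065 (others 449.9 to 521). All of these but Lamb2 lie on arrays that stood apart by their correlation with the rest.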

How the results depend on the processing

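No call changed direction under any alternative run for it. Leaving out 1 array gave 0 to 1 called members in mouse at 4 h, 1 to 3 at 8 h, 2 to 7 at 24 h, 11 to 15 at 72 h, 0 to 1 for sham against naive and 0 to 3 for 72 h minus 24 h. In rat it gave 0 to 6 at 4 h, 0 to 1 at 72 h and 0 elsewhere. Where that left 1 sham array, it was taken to vary like the other groups. With all uninjured arrays as 1 control group, mouse counts were 2 at 4 h, 7 at 8 h and 10 at 24 h, and rat counts 0 at 4 h, 3 at 24 h and 3 at 72 h. With the shams of a time averaged, mouse counts were 1 at 8 h, 3 at 24 h and 11 at 72 h. The rat count at 4 h was 1 with quantile normalization, 0 with no filter and 0 without the arrays that stood apart; at 72 h it was 2 with a gene's probe sets averaged and 2 without those arrays. Shares of all genes are not given here beside these counts, so the counts only describe the members. The cause of these moves was not tested. Quantile normalization moved the median of all genes by over 0.1 in rat alone: 0.15 at 4 h, -0.14 at 8 h, -0.18 at 72 h and 0.21 for 21 d minus 72 h. Testing each probe set on its own, chosen after seeing the data, gave 18 mouse members at 72 h and 8 at 24 h. Of all probe sets tested, 13.9% were called at 72 h and 9.12% at 24 h.

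Rat samples of 1 number did not deviate together (median correlation of deviations -0.008 over 195 pairs, against 0.002 over 502 pairs of different number). With the replicate number as a block, 2 rat members were called at 4 h (Col3a1 was lost, adjusted p = 0.0655), 1 at 72 h and 0 elsewhere. The title letter as a block gave 2 mouse members at 8 h, 4 at 24 h and 14 at 72 h. No share of all genes is given beside the counts with a block either. In mouse at 4 h the injury titles carry a and the sham titles b and c. In rat at 4 h every injury title carries b and every sham title a. Letter and injury cannot be told apart in these comparisons, and the letter was not used as a block in rat. The number of arrays, 2 or 3 in most groups, limits precision.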
